A study of Mus musculus with 5 samples.

Results

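The renin-angiotensin system genes examined here are Agt, Ren1, Ace, Agtr1a, Agtr2, Enpep and Mme, all 7 of which were found by their symbols among the 18044 genes of the deposited table. They were measured by RNA sequencing of cells from the pelvis-kidney junction, where the renal pelvis joins the kidney, of wild-type C57BL/6 mouse embryos at E18.5. Junctions of all embryos were pooled and broken up with collagenase, and cells were sorted on an antibody to HCN3, a hyperpolarization-activated cation channel. The series holds 2 libraries labelled HCN3-positive, described by the submitters as pacemaker cells of the urinary tract, and 3 labelled HCN3-negative, and the design asks how these cells differ. No library carries a transgene, an engineered allele or a treatment. Nothing in the labels says that replicates came from separate pools, so the spread that the p-values measure, that between these samples, may be technical.

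In this system the precursor angiotensinogen is cut by renin to angiotensin I, and angiotensin-converting enzyme trims that to angiotensin II. Angiotensin II acts through the type 1 receptors and the type 2 receptor, and peptidases such as aminopeptidase A and neprilysin break the peptides down. Renin is made by juxtaglomerular and other mural cells of developing renal vessels. Mice that lack angiotensinogen or the type 1 receptors fail to form a normal renal pelvis and its muscle layer, which makes the pathway of interest in this tissue.

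In GENCODE M21 (build mm10) Ren1 spans chromosome 1 from 133350510 to 133360325, Agt chromosome 8 from 124556534 to 124569706 and Agtr1a chromosome 13 from 30336441 to 30382867. Agtr2 spans chromosome X from 21484544 to 21489164 and Mme chromosome 3 from 63241537 to 63386030. Enpep, also on chromosome 3, and Ace, on chromosome 11, are placed beside their sequences.

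Expression is given as normalized read counts, which are the reads of a gene divided by the size factor of its library. Libraries held 24588864 to 39034478 reads in genes, and 3 reads correspond to a normalized count of 2.23 to 4.23. The authors' own comparison does not divide the libraries by label. In all 18047 rows of the authors' deposited table, summary rows of the read counter included, the fold was matched by 1 division of the libraries: HCN3-negative 1, HCN3-negative 3 and HCN3-positive 2, averaged, over the average of HCN3-negative 2 and HCN3-positive 1 (relative tolerance 0.01). The table's headers call these groups B and A, and they are called set B and set A here. The authors named this comparison as HCN3-negative against HCN3-positive, so it conflicts with the labels. Set A holds 2 libraries and set B 3, as many as are labelled positive and negative. The sources used here do not give why the table divides the libraries in this way or whether it or the labels are right. Nor do they give which set is HCN3-positive. Hcn3 itself had a normalized count of 0 in HCN3-positive 1 and 44.5 in HCN3-positive 2. It had 103, 32.2 and 41.9 in HCN3-negative 1, 2 and 3, so its transcript did not follow the labels. By set, all of set B lay above all of set A for Hcn3, as was so for 26.1% of all genes. The adjusted limma p of Hcn3 between sets was 0.178. Macrophage markers summed to 265831 and 404237 in the libraries of set A and to between 651 and 1014 in those of set B. Smooth muscle markers summed to 4425 and 6425 in set A and to 24368 to 131143 in set B. Proximal tubule markers divided by label instead, with sums of 4974 and 7439 in HCN3-positive 1 and 2, below the 10964, 37885 and 21167 of HCN3-negative 1, 2 and 3. In 10 of these 12 genes the labelled groups did not overlap, with the positive libraries lower, as in 5.44% of all genes, and limma called 0 of the 12 by label. Each comparison below was therefore made by label and by set, and each direction by label rests on the labels being right.

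Agt, the gene of angiotensinogen, was close to the limit of detection. Its normalized counts were 1.41 and 40.1 in HCN3-positive 1 and 2, and 9.80, 25.5 and 14.9 in HCN3-negative 1, 2 and 3, from 1, 54, 11, 23 and 16 reads. The groups overlapped by label and by set. Per kilobase of exon, a scale on which genes can be compared, Agt was the lowest of the 7 genes in every library, at 0.745 to 21.2 normalized counts. The log2 difference between labels, positive minus negative, was -0.74 (95% interval -4.67 to 3.19), and that between sets, B minus A, was 1.26 (-1.87 to 4.40), with adjusted limma p of 1.00 and 0.562. Given this spread between libraries, a difference of several fold in Agt was not detectable.

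Ren1, the gene of renin, was abundant, and of the 7 members it varied most within set B. The normalized counts were 734 and 4769.8 in HCN3-positive 1 and 2, and 12089.5, 537 and 999.98 in HCN3-negative 1, 2 and 3. All 3 libraries of set B lay above both of set A, but HCN3-negative 3 only just did so, and within set B the highest library exceeded the lowest 12.1-fold. Set means were 636 ± 139 (SD, n = 2) in A and 5953 ± 5639 (SD, n = 3) in B. The log2 difference of 2.62 between sets (SE 0.92) did not pass in limma, with an adjusted p of 0.0940. With 1 library left out it ran from 1.797 without HCN3-negative 1 (adjusted limma p 0.208) to 3.59 without HCN3-negative 3 (0.00653), the only such fit in which Ren1 passed. By label the difference was 0.00 (95% interval -3.93 to 3.94).

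Markers of other cells moved with Ren1. The pericyte and juxtaglomerular list summed to 2160 and 2672 in set A. It summed to 24961, 42421 and 23438 in HCN3-positive 2, HCN3-negative 1 and HCN3-negative 3. All 8 of its genes were called higher in set B, against 9.88% of all genes. Akr1b7, an aldo-keto reductase known as a marker of renin cells, was at 242 and 155 in set A and at 1363, 2930 and 619 in the same libraries of set B. Akr1b7 and Ren1 thus had the same order of libraries within set B, but Akr1b7 was chosen after its values were seen, and Gja5, Kcnj8 and Abcc9 of the same list were higher in HCN3-negative 3 than in HCN3-positive 2. Smooth muscle sums were 95772, 131143 and 24368 in these libraries. Fewer cells of a type and less RNA per cell cannot be told apart in such bulk samples, and the part of these cells in the level of Ren1 was not tested.

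The table also carries a row for Ren2, the near-identical duplicated renin gene that C57BL/6 mice lack. Ren2 took reads amounting to 1.92%, 2.05%, 1.91%, 1.65% and 0.837% of those of Ren1 in HCN3-positive 1 and 2 and HCN3-negative 1, 2 and 3. The sources used here do not give how reads common to Ren1 and Ren2 were counted, so the level of Ren1 is uncertain and may leave out shared reads.

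Ace, the gene of angiotensin-converting enzyme, was the only member called higher in set A. Its normalized counts were 1845 and 162 in HCN3-positive 1 and 2, and 177, 1192 and 346 in HCN3-negative 1, 2 and 3. Both libraries of set A lay far above all 3 of set B, and the labelled groups overlapped. Ace was 6.65-fold higher in set A, at 1519 ± 462 (SD, n = 2) against 228 ± 102 (SD, n = 3). The log2 difference, B minus A, was -2.78 (SE 0.46), with an adjusted limma p of 0.00727. The authors' deposited table gives Ace an adjusted p of 2.39e-06.

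Ace is known from endothelium and from brush borders, and also from myeloid cells. All 10 endothelial markers were called higher in set B, where Ace was lower, against 9.88% of all genes. The list summed to 8508 and 9485 in set A and to 34628 to 129086 in set B. Proximal tubule markers summed to 4974 and 37885 in set A and to 7439 to 21167 in set B, so they did not divide by set as they did by label. All 9 macrophage markers with a row were called higher in set A, against 10.6% of all genes. Among them the receptor gene Csf1r was at 92160 and 139878 in set A and at 422 to 546 in set B. The part of macrophages in the level of Ace was not tested. Profiles over the 5 libraries were compared with those of 12187 genes with a mean of at least 100. Members and genes with predicted, clone, ribosomal protein, pseudogene or small RNA names were left out of these. The profile of Stk10, a kinase gene, was among those closest to that of Ace, with a mean absolute difference of 0.15 on the centred log2 scale.

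The receptor genes were higher in set B. Agtr1a, the main type 1 receptor gene, had normalized counts of 100.1 and 812 in HCN3-positive 1 and 2, and of 1861, 220 and 749 in HCN3-negative 1, 2 and 3. Agtr2, the gene of the type 2 receptor, which is abundant in fetal mesenchyme, had 24.0 and 1782 in HCN3-positive 1 and 2, and 3370, 476 and 2112 in HCN3-negative 1, 2 and 3. For both genes all of set B lay above all of set A, with HCN3-negative 1 the highest and HCN3-positive 1 the lowest.

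Agtr1a was 7.13-fold higher in set B, at 1141 ± 625 (SD, n = 3) against 160 ± 84.6 (SD, n = 2), a log2 difference of 2.80 (SE 0.55) with an adjusted limma p of 0.0138. Agtr2 was 9.68-fold higher, at 2421 ± 838 (SD, n = 3) against 250 ± 320 (SD, n = 2), a log2 difference of 4.42 (SE 1.11) with an adjusted limma p of 0.0327. The authors' deposited table gives adjusted p-values of 0.0661 for Agtr1a and 0.000195 for Agtr2. Within set A, Agtr2 differed 19.9-fold between the libraries and Agtr1a 2.20-fold. The ratio of Agtr2 to Agtr1a per kilobase of exon was 0.160 in HCN3-positive 1 and lay between 1.21 and 1.89 in the other libraries, HCN3-negative 2 of set A among them at 1.45. The receptor balance therefore set HCN3-positive 1 apart and not set A as a whole.

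Stroma and fibroblast markers were at 11304 and 11056 in set A and 101899 to 208706 in set B. All 9 of them were called higher in set B, against 9.88% of all genes. Sums of the podocyte, endothelial, smooth muscle, and pericyte and juxtaglomerular lists were also higher in all of set B than in all of set A. The part of any of these cells in the receptor differences was not tested. The closest profiles to Agtr1a were those of Mrvi1 and Matn2, with mean absolute log2 differences of 0.13 and 0.17, and those closest to Agtr2 were Dpep1 and Edil3, with 0.17 and 0.23. For Ren1 the closest were Kcnmb1, a subunit gene of a smooth muscle potassium channel, and Aard, with 0.27 and 0.34. Only 13 of the 12187 genes came within 0.5 of the profile of Ren1, against 261 for Agtr1a, 52 for Agtr2 and 316 for Ace.

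**Figure D1:**
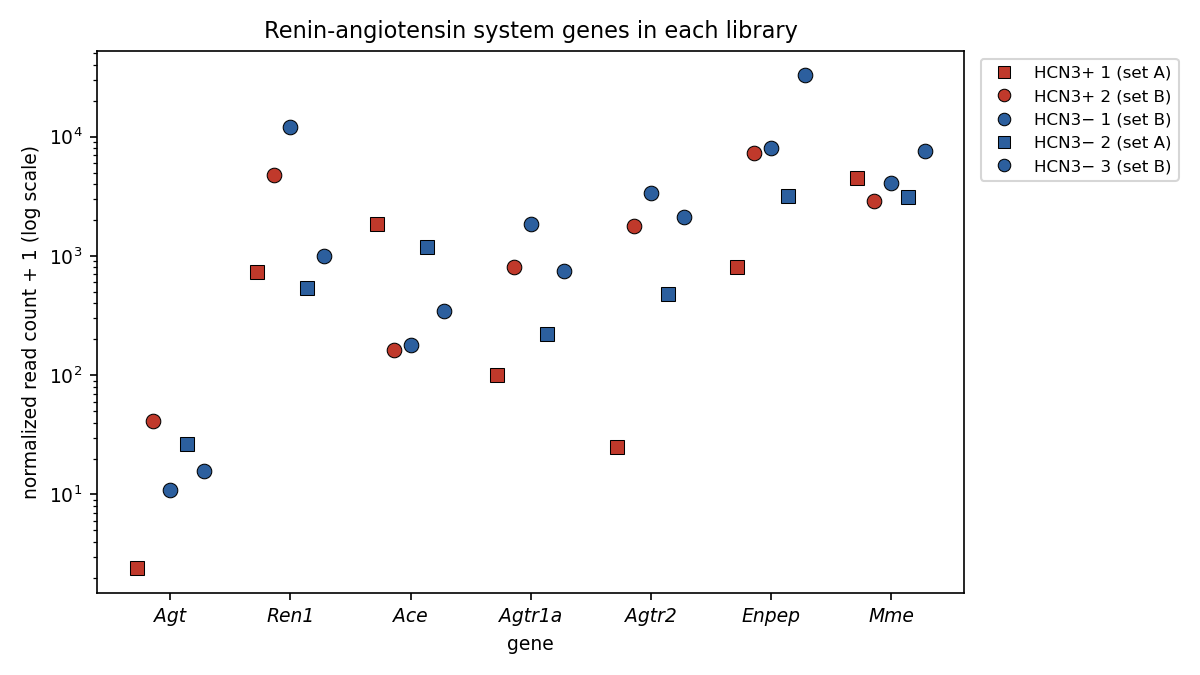
Normalized read count plus 1 (vertical axis, log scale) of the 7 genes (horizontal axis), with 1 point for each of the 5 libraries. Red points are libraries labelled HCN3-positive and blue points those labelled HCN3-negative, with squares for set A and circles for set B. Squares lie below circles for Ren1, Agtr1a, Agtr2 and Enpep and above them for Ace, while red and blue mix for every gene.

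The angiotensin-degrading peptidases did not move alike. Enpep, the gene of aminopeptidase A, which removes the first residue of angiotensin II, had normalized counts of 806 and 7329 in HCN3-positive 1 and 2, and 8012, 3161 and 32642 in HCN3-negative 1, 2 and 3. Set B lay above set A throughout, and HCN3-negative 3 stood above every other library. Enpep was 8.06-fold higher in set B, at 15994 ± 14421 (SD, n = 3) against 1984 ± 1665 (SD, n = 2). The log2 difference was 2.96 (SE 0.78), with an adjusted limma p of 0.0393, and the authors' deposited table gives 0.443. The call was lost whichever library was left out, with log2 differences of 1.97 to 3.94 and adjusted limma p of 0.0604 to 0.284.

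Podocyte and endothelial markers were also highest in HCN3-negative 3. The podocyte list summed to 443727 there, against 62376 and 77127 in the other libraries of set B and 15717 and 9522 in set A. Of its 8 genes, 7 were called higher in set B, against 9.88% of all genes. Aminopeptidase A is known from podocytes, proximal tubule and pericytes, and the part of each in the level of Enpep was not tested. The closest profiles to Enpep were those of Dll4, a Notch ligand gene of arterial endothelium, and Gimap8, with mean absolute log2 differences of 0.15 and 0.17.

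Mme, the gene of neprilysin, which turns angiotensin I into angiotensin 1-7, was the steadiest member. It was at 4535 and 2887 in HCN3-positive 1 and 2, and at 4098, 3123 and 7602 in HCN3-negative 1, 2 and 3. The groups overlapped by label and by set, and the highest library exceeded the lowest 2.63-fold, where the same ratio was 11.4 for Ace and 141 for Agtr2. The log2 difference between sets was 0.25 (95% interval -0.71 to 1.22), with an adjusted limma p of 0.715. As many as 4488 of the 12187 genes came within 0.5 of its profile, so its closest genes, Arl5a and Iqsec1 with differences of 0.09 and 0.10, are 2 of many. The ratio of Enpep to Mme per kilobase was 0.365 in HCN3-positive 1 and 8.81 in HCN3-negative 3, with 5.21, 4.01 and 2.08 in HCN3-positive 2, HCN3-negative 1 and HCN3-negative 2.

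The levels of the 7 genes changed rank from library to library. Per kilobase of exon, the median over libraries fell from 1753 normalized counts for Enpep to 628 for Ren1, 543 for Agtr2, 478 for Mme, 341 for Agtr1a, 67.8 for Ace and 7.87 for Agt. The ranges over libraries of each adjacent pair in this order overlapped, except those of Ace, 31.7 to 362, and Agt. Such overlap does not compare genes within a library, and differences between genes were not tested. The leading gene was Mme in HCN3-positive 1, Ren1 in HCN3-positive 2 and HCN3-negative 1, and Enpep in HCN3-negative 2 and 3.

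Promoter sequences of a pair of members that moved in opposite directions are shown, because their cores differ in composition. Both windows hold the 120 bases before the RefSeq start (GRCm38.p6, the build that corresponds to mm10), 5′ to 3′ on the strand of the gene. Capitals mark matches on either strand to TATAAA or to the GC box GGGCGG. Ace lies on chromosome 11 (105967945 to 105989964, plus strand) and Enpep on chromosome 3 (129269175 to 129332720, minus strand) in GENCODE M21.
Ace, somatic promoter, chr11:105967828-105967947: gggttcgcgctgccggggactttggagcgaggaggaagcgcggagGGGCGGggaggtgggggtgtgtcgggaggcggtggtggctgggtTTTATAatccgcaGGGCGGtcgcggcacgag
Enpep, chr3:129332750-129332869: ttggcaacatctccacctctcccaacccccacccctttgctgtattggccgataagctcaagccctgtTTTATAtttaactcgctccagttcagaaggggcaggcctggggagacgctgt
The window of Ace held 2 GC boxes and 70.8% G and C, and that of Enpep no GC box and 54.2% G and C. Each held 1 TATAAA match, on the opposite strand. Of 32851 such windows, 6.34% held TATAAA and 26.5% the GC box. These matches describe letters only and show no binding. The pair was chosen for its difference in composition, and a link of composition to direction was not tested.

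By label, none of the members passed. Of the 7 genes, 0 were called in limma and 0 had an unadjusted p under 0.05, and all 7 had labelled groups that overlapped. Over all 16579 genes tested, limma called 0.0% and had an unadjusted p under 0.05 for 157, or 0.947%. edgeR called 0 (165 unadjusted), while DESeq2 called 10 (464 unadjusted). Labelled groups did not overlap for 10.8% of all genes, with the positive libraries higher for 5.34% and lower for 5.44%. The log2 differences by label had intervals too wide to show similar levels, from -7.76 to 2.10 for Agtr2 and from -1.50 to 0.81 for Mme. Agtr1a and Agtr2, at -1.24 and -2.83, turned to 0.27 and 0.25 without HCN3-positive 1. With the set as a term in the fit, a setting added after the data were seen, 0 members passed, and 2, Agtr2 and Enpep, had an unadjusted p under 0.05 (limma), as had 3.28% of all genes in that fit.

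By set, 3 members rose in set B and 1 fell. Agtr1a, Agtr2 and Enpep were called higher in set B and Ace lower, where limma called 20.5% of all genes, 9.88% as higher in set B and 10.6% as higher in set A. The median log2 difference was 2.62 for the 7 members and 0.07 for all genes. An unadjusted p under 0.05 was found for 5 of the 7 and for 33.4% of all genes. In 5 of the 7 the sets did not overlap, with set B higher for 4 and set A for 1, as was so for 49.6% of all genes, with set B higher for 26.1% and set A for 23.5%. The authors' deposited table called 2 members at the same threshold of 0.05, Agtr2 as higher in set B and Ace as higher in set A. It called 14.2% of all genes, 6.09% as higher in set B and 8.1% as higher in set A.

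Few libraries carry these calls. The number of members called fell from 4 to 0 without HCN3-positive 1, to 1 without HCN3-negative 1, to 2 without HCN3-positive 2 and to 3 without HCN3-negative 2 or HCN3-negative 3. Ace passed in each of these fits but that without HCN3-positive 1 (adjusted limma p 0.0857), and Agtr2 only in that without HCN3-negative 2 (0.0146). The 3 called without HCN3-negative 3 were Ace, Agtr1a and Ren1, and Ren1 was not among the 4. Agtr2 (adjusted limma p 0.0788) and Enpep (0.0609) lost their calls in that fit. The direction of each of the 4 was the same whichever library was left out. With all libraries edgeR called only 2 of them, with adjusted p of 0.0989 for Agtr2 and 0.0769 for Enpep.

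**Figure D2:**
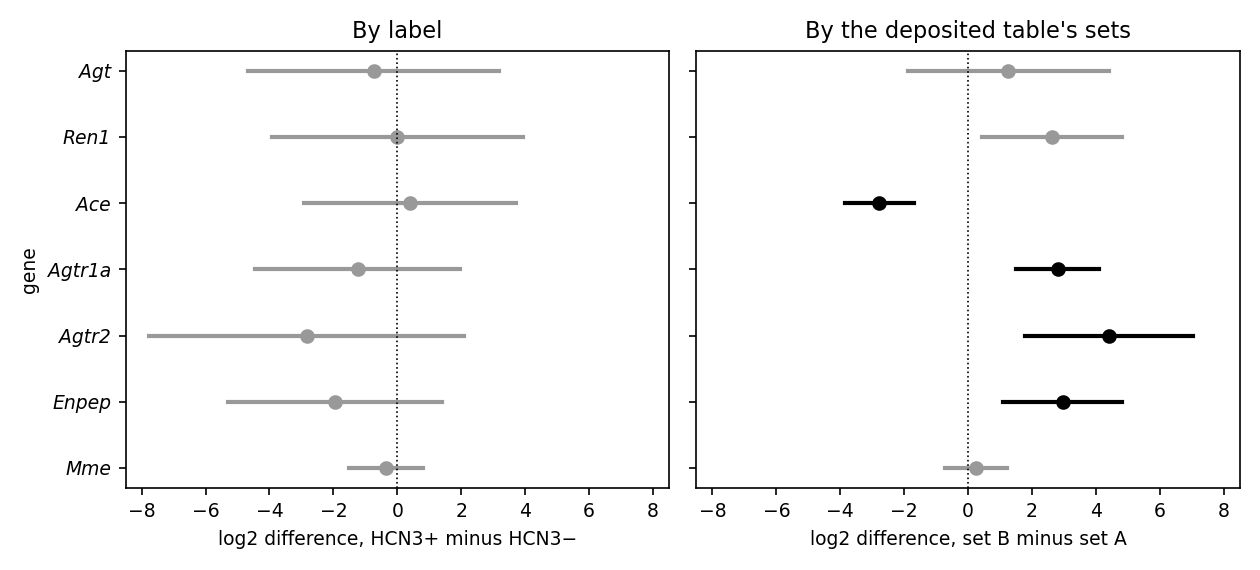
Log2 difference on the log2(normalized count + 1) scale (horizontal axis) of the 7 genes (vertical axis), by label at left and by set at right. Points are limma estimates, lines are 95% intervals for single genes, and black marks an adjusted p under 0.05. All 7 intervals at left include 0, and Ace at right lies on the other side of 0 from Agtr1a, Agtr2 and Enpep.

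**Figure D3:**
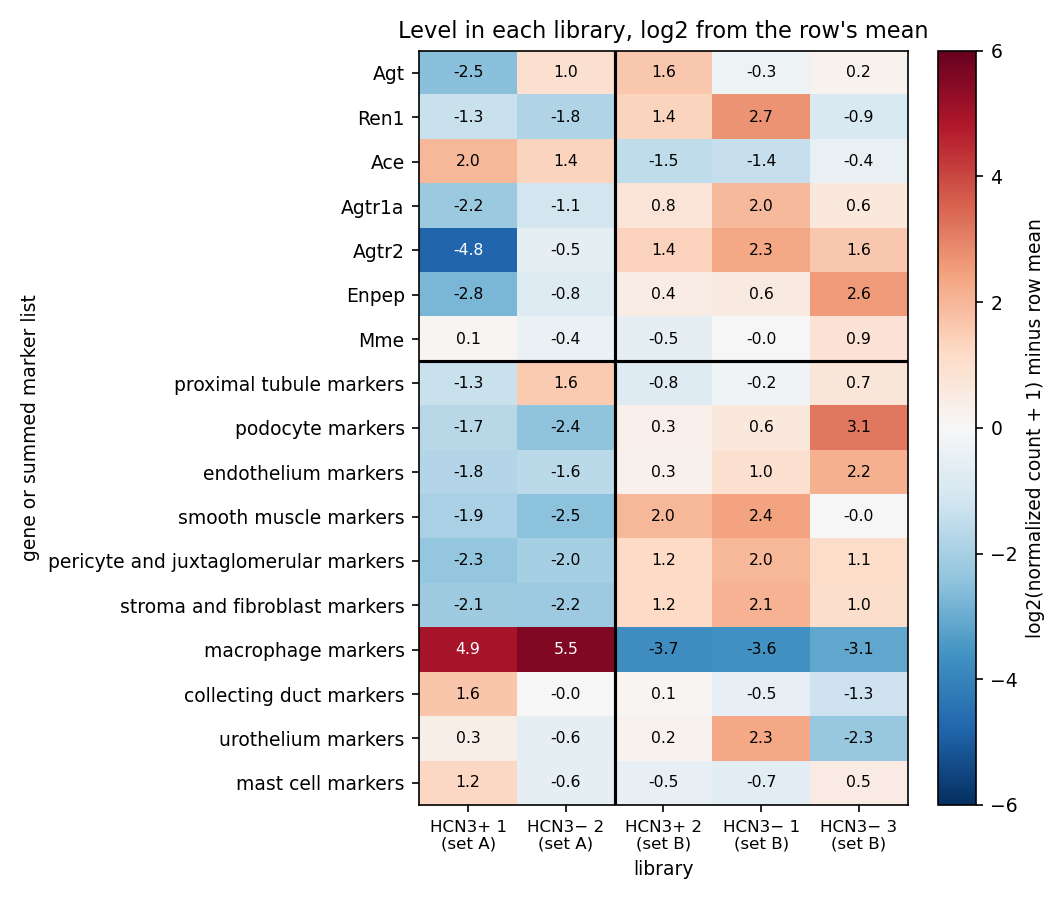
Level of each member (upper rows) and of each summed marker list (lower rows) in the 5 libraries (columns), as log2(normalized count + 1) minus the row mean. Red is above and blue below the mean, and the vertical line divides set A from set B. Ace is red in the columns where macrophage markers are red, at 4.93 and 5.54. The receptor genes are red in the columns of set B. So are the stroma and fibroblast, podocyte, endothelium, and pericyte and juxtaglomerular lists.

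Of 23 other genes of the pathway, 22 had a row and 21 passed the filter on low values (Mrgprd did not). By label 0 were called, and the labelled groups did not overlap for 2 of the 21, 1 in each direction, close to the 10.8% of all genes. By set 2 were higher in set B and 9 higher in set A, with a median log2 difference of -1.06 that is the same when genes at 0 are put at their lower bounds. Over all genes 9.88% were called higher in set B and 10.6% higher in set A, with a median of 0.07. The members and the rest of the pathway thus had medians of opposite sign. The authors' deposited table called 2 of these genes higher in set B and 7 in set A, against 6.09% and 8.1% of all genes. Nln (adjusted p 0.185) and Agtrap (0.0515), which limma called higher in set A, were not called there.

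A pair of receptor genes went with set B. Mas1, the gene of the angiotensin 1-7 receptor, had 0 reads in both libraries of set A and 31.9, 37.4 and 71.6 in set B, at least 12.4-fold higher against 3 reads per library (adjusted limma p 0.00950). Agtr1b, the second type 1 receptor gene, likewise had 0 reads in set A and 48.2, 80.2 and 92.1 in set B, at least 19.4-fold higher (adjusted limma p 0.00512). Agtr1a exceeded Agtr1b 16.4-, 22.7- and 7.94-fold per kilobase in the libraries of set B.

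Genes with broader peptidase or lysosomal roles made up much of the group higher in set A. Ctsd, a lysosomal aspartic protease able to cut angiotensinogen, was 5.46-fold higher there, at 73363 and 112126 against 15150 to 19708 (adjusted limma p 0.00123). Ctsa, a lysosomal carboxypeptidase, was 5.34-fold higher (adjusted limma p 0.00168), and Prcp, which cuts angiotensin II, 2.94-fold (adjusted limma p 0.00644). Rnpep, or aminopeptidase B, was 3.92-fold higher, at 9754 and 9328 against 2081 to 2671 (adjusted limma p 0.00110). Lnpep, the angiotensin IV-binding aminopeptidase, was 3.21-fold higher and the metallopeptidase gene Nln 1.83-fold (adjusted limma p 0.0188 and 0.0414).

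Adaptors of renin and of the receptors were in the same group. Atp6ap2, which encodes the prorenin receptor and also serves the vacuolar proton pump, was at 8916 and 10969.5 in set A against 3408 to 3790 in set B, 2.76-fold higher (adjusted limma p 0.00247). Agtrap, a protein bound to the type 1 receptor, was 2.09-fold and Mtus1, bound to the type 2 receptor, 2.10-fold higher in set A (adjusted limma p 0.0159 and 0.0339). Macrophage markers, as given above, divided the libraries in the same way as these 9 genes, and their part was not tested. The number of other pathway genes called was 6 without HCN3-positive 1 and 7 without HCN3-negative 1, against 11 with all libraries.

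The remaining 10 tested genes did not pass by set. Anpep, or aminopeptidase N of the brush border, was at 751 and 882 in HCN3-positive 1 and 2 and at 1018, 2474 and 1578 in HCN3-negative 1, 2 and 3. Its labelled groups did not overlap, with a log2 difference of -0.96 (SE 0.44) and an adjusted limma p of 1.00. The proximal tubule markers given above were lower in the same libraries, and their part in the level of Anpep was not tested. Prep, a prolyl peptidase, had labelled groups that did not overlap in the other direction, at 3441 and 3777 against 2474 to 3305, with 0.30 (SE 0.24) and an adjusted limma p of 1.00. Dpp3, Thop1, Klk1 and Nr3c2 had log2 differences between sets of -0.63, 0.72, 0.30 and -0.44.

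**Figure D4:**
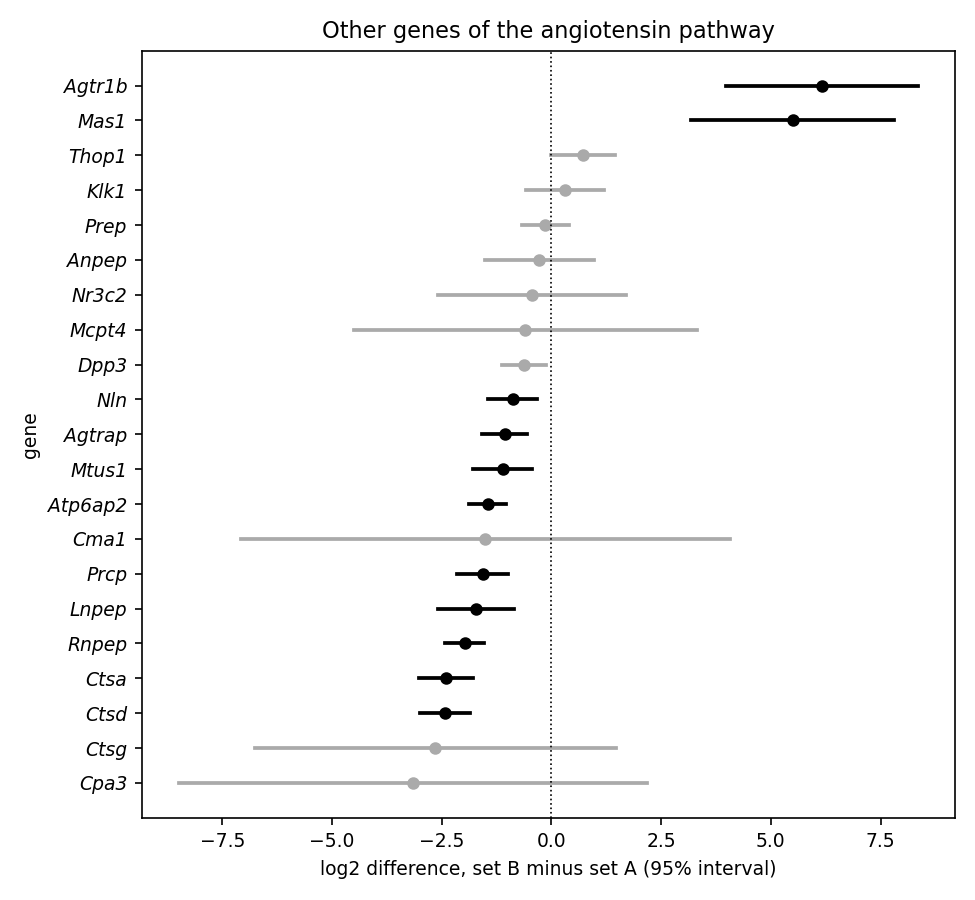
Log2 difference, set B minus set A, on the log2(normalized count + 1) scale (horizontal axis) of the 21 other pathway genes tested (vertical axis, sorted). Points are limma estimates, lines 95% intervals for single genes, and black marks an adjusted p under 0.05. In black, Agtr1b and Mas1 lie to the right of 0 and 9 genes, from Nln to Ctsd, to the left.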

How the data were processed

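Per the labels' protocols, libraries were made with Nextera XT from Clontech-kit cDNA. Neither is stated to keep strand, so antisense or overlapping genes may share reads. The submitters' processing notes name TopHat2 2.0.11 and the build mm10, HTSeq 0.6.1p2 and DESeq 1.18.0, after read preparation with bcl2fastq 2.17, cutadapt 1.8, Trim Galore 0.40 and FastQC 0.11.2. The sources used here do not give the annotation behind the counts. The signal columns are read counts divided by a size factor per library, as deposited by the authors. The deposited table also gives the authors' fold as a ratio of means, its log2 value, p-value and adjusted p-value; its 2 columns of group means were not used. The table's 3 summary rows were kept out of all tests. Of the reads counted in the table, summary rows included, 13.5% to 18.7% were not aligned uniquely. Another 8.58% to 14.0% fell in no gene and 0.792% to 2.32% were ambiguous.

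Libraries were grouped by title. The main test was limma 3.58.1 (trend, R 4.3.3) on log2(normalized count + 1) over the 16579 genes whose mean reached 5, with Benjamini-Hochberg adjustment over all of them and a threshold of 0.05. Fold changes on that scale understate the change of low genes, and folds of means are given beside them. Division of a library's values by the lowest one above 0 gave whole reads for 100% of values (tolerance 0.01), on which edgeR 4.0.16 (quasi-likelihood, 2824 genes called by set) and DESeq2 1.42.0 (4526) were run as alternatives. Other alternatives were pseudocounts of 0.5 and 5, no filter or a mean of at least 20, TMM scaling (prior count 1), the replicate number as a block, and each library left out. The scripts were tested on simulated data. Floors of 3 reads cover counting error alone, because PCR copies are not independent molecules. No library pair was alike within sampling noise (chi-square over its degrees of freedom from 98.3 to 743).

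The 7 members, the 23 other pathway genes and the marker lists (proximal tubule, podocyte, endothelium, smooth muscle, pericyte and juxtaglomerular, stroma and fibroblast, macrophage, collecting duct, urothelium, mast cell) were chosen with earlier results of these data known. Named are the members, Hcn3, pathway genes that passed by set or had labelled groups that did not overlap with a mean of at least 50 in a group, others of that list, marker genes, and for each member with a mean of at least 20 the 2 genes with the smallest mean absolute difference of centred log2 profiles. Results for 2 genes that these rules select are not reported here. Akr1b7 was named after its values were seen, and Csf1r as a most abundant gene of its list. Positions and exon lengths (union of exons, basic set) come from GENCODE M21, and promoter windows from RefSeq.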

Additional observations from a re-analysis of the deposited data

How the results depend on the processing

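By label, 0 members and 0 other pathway genes were called under every alternative, and limma and edgeR called 0 genes under each, whereas DESeq2 called 10. By set, edgeR called 2 members. With libraries left out in turn, the calls by set ran from 1241 to 2829 genes (3396 with all libraries), from 0 to 3 members (4 with all) and from 6 to 10 other pathway genes (11 with all). Where an arm was left with 1 library, that library was assumed to vary like the others. The replicate numbers share no animal or batch in the labels. Deviations of same-numbered libraries correlated at -0.534 and -0.686 over genes. Each such pair joins a library of set A to 1 of set B, and deviations of the 2 positive libraries mirror each other. These correlations therefore cannot tell whether the numbers pair the samples. With the replicate number as a block, limma called 2827 genes and 4 members by set. Ren1 passed (log2 difference 3.59, adjusted limma p 0.00246) and Agtr2 did not (4.49, 0.0553). The block gave -0.45 for Ren1 and 0.0163 for Mme by label, and -0.13 for Mme by set. Also reversed by label were Ren1 in edgeR (-0.68) and DESeq2 (-0.72), Agt in edgeR (0.34) and DESeq2 (0.32), and Ace with the set as a term, added after seeing the data (-0.0799). With libraries left out, differences by label ran from -1.34 to 1.35 for Ren1, -2.78 to 1.31 for Agt, -1.37 to 2.14 for Ace, -2.74 to 0.27 for Agtr1a, -5.91 to 0.25 for Agtr2 and -0.67 to 0.0163 for Mme. By set they ran from -0.47 to 2.99 for Agt and from -0.13 to 0.57 for Mme. The cause of these changes was not tested. Ace, Agtr1a, Agtr2, Enpep and Ren1 kept their direction by set under all 14 alternatives. DESeq2 also called Ren1 by set (3.23, adjusted p 0.000694). Agt, with a mean under 20, has no value under the stricter filter.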

Other observations

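Genes of mast cells, which can form angiotensin II with chymase, did not all move alike. Cma1, a gene named as a chymase, was at 29.6 and 99.4 in HCN3-positive 1 and 2, and at 0, 235 and 266 in HCN3-negative 1, 2 and 3. Cpa3, a mast cell carboxypeptidase, was at 431, 54.9, 0, 128 and 331 in the same order. Tpsb2 of the same list, at 46.5, 102, 0, 156 and 304, had the same order of libraries as Cma1. Cma1, Cpa3 and Tpsb2 were at 0 in HCN3-negative 1. So were Mcpt4 and Fcer1a, which had at most 17 and 7 reads in any library. In HCN3-negative 1, Ms4a2 of the same list was at 281 and Kit, which other cells also express, at 1979. Of the 6 mast cell markers tested, 0 were called by label or by set.

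Collecting duct markers summed to 65912 and 22616 in HCN3-positive 1 and 2 and to 15235, 20813 and 8874 in HCN3-negative 1, 2 and 3, so both positive libraries lay above all 3 negative ones. For 4 of the 7 genes, Hsd11b2, Gata3, Calb1 and Wnt9b, the positive libraries lay above all negative ones, as for 5.34% of all genes. The gap was narrow for Calb1, at 9099 in HCN3-positive 1 against 9092 in HCN3-negative 2. Labelled groups overlapped for Aqp2, which had the highest mean of the list. Its count was 3248 in HCN3-positive 2 and 4826 in HCN3-negative 2. By label limma called 0 of the 7, and by set 1, higher in set A, as were 10.6% of all genes. Urothelial markers summed to 7251 in HCN3-negative 1 and to 304 to 1849 in the others, with 0 of 7 called.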
